A study of Mus musculus with 30 samples.

Results

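The BAF (SWI/SNF) complex subunits described here are 10 genes, chosen by name as the ATPases (Smarca4, Smarca2), core subunits (Smarcc1, Smarcc2, Smarcd1, Smarcd2, Smarcd3) and ARID subunits (Arid1a, Arid1b, Arid2) of the complex. Each stands on 1 of the 49585 rows of the deposited expression table. The tested embryos were 8-cell mouse embryos in which Yy1 was knocked down with the siRNA numbered 1; the gene encodes YY1, a zinc finger protein that regulates transcription. They were set against 8-cell embryos with control knockdown. Both groups came from the cross BDF1 x BDF1, were cultured in KSOM medium and held 2 RNA libraries each, numbered as replicates 1 and 2 in the titles. The labels give neither the number of embryos per library nor whether replicates came from separate collections, so the p-values below cover no more than library-to-library spread, which could be technical. The Yy1 knockdown RNA libraries used siRNA 1 alone, so other effects of this siRNA cannot be told apart from loss of Yy1. The other 26 of the 30 samples of the series were not analysed here.

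The BAF complex uses the energy of ATP hydrolysis to slide or evict nucleosomes and so opens DNA to transcription factors. A complex holds 1 ATPase, BRG1 (Smarca4) or BRM (Smarca2), around a core of SMARCC and SMARCD proteins. Canonical BAF carries ARID1A or ARID1B, and PBAF carries ARID2. Maternal BRG1 is required for zygotic genome activation in mouse embryos, and mouse embryonic stem cells have a form of the complex with BRG1, BAF155 (Smarcc1), BAF60a (Smarcd1) and ARID1A. YY1 is the factor that the series title links to nucleosome remodeling. The comparison asks whether transcripts of the BAF subunits differ when Yy1 is knocked down.

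Values were FPKM, the fragments assigned to a gene scaled to its length and to the library's total. Library totals recovered from the steps between values were 34074291 and 29302489 fragments in the Yy1 knockdown libraries, against 34429515 and 31405476 in the controls. Yy1 itself had 5.89 and 7.98 FPKM in Yy1 knockdown libraries, against 77.7 and 71.2 FPKM in controls. Its mean was 10.7-fold lower, a log2 fold change of -3.26. This missed the threshold of 0.05 in the limma fit applied to the members (adjusted p = 0.0556). The adjusted p of Yy1 depended on the setting. It was 5.16e-05 with limma-voom on recovered fragments, 0.000493 with limma on protein-coding genes alone and 0.0108 with a filter of 5 FPKM. Limma gave 0.114 with quantile normalization, 0.379 with a replicate block and 0.769 without a filter. Over all fits its log2 fold change ran from -3.45 to -3.07. All 8 markers of the preimplantation embryo exceeded 1 FPKM on average, among them Pou5f1 at 184 FPKM in Yy1 knockdown and 204 FPKM in control libraries. Klf17 had 83.3 and 69.2 FPKM in Yy1 knockdown libraries, against 61.2 and 38.2 FPKM in controls. Tfap2c had 41.4 and 35.0 FPKM, against 55.5 and 43.5 FPKM in controls. Pou5f1, Klf17 and Tfap2c did not overlap between the groups, beside 40.7% of all tested genes. The remaining embryo markers overlapped. Cumulus and granulosa cells were represented by 17 markers, of which only Amhr2 exceeded a mean of 1 FPKM, and Fshr, Inha, Has2, Ptx3 and Lhcgr were listed at 0 in all 4 libraries. This list summed to 9.37 and 8.89 FPKM in Yy1 knockdown and 6.34 and 5.81 FPKM in control libraries. Most of the sum was Amhr2, at 7.80 and 7.30 FPKM in Yy1 knockdown and 5.35 and 4.74 FPKM in control libraries. The other markers differed in both directions, and the part of this list in the results was not tested. Of 12 sperm and 10 blood cell markers 0 exceeded a mean of 1 FPKM over the 4 libraries. Mitochondrial transcripts took 8.97% of the fragments of control replicate 1 and 6.50 to 6.88% of those of the other 3 libraries. In bulk embryos, fewer cells with a transcript and less of it per cell cannot be told apart.

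Levels per gene length were highest for Smarca4 and Arid1a and lowest for Smarca2 and Smarcd3. Smarca4 and Arid1a had higher means over the 4 libraries than 94.0% and 94.1% of the tested genes. In Yy1 knockdown libraries the order by mean FPKM was Smarca4 (115), Arid1a (105), Smarcc1 (39.0), Smarcd2 (17.3), Arid2 (8.41), Arid1b (7.02), Smarcc2 (6.31), Smarcd1 (4.50), Smarca2 (1.17) and Smarcd3 (1.08). Only Smarca2 and Smarcd3 were neighbours whose libraries overlapped there. In control libraries Arid1a (118) stood above Smarca4 (105), and Smarcd3 (3.39) above Smarca2 (0.823). Overlapping neighbours there were Arid1b with Smarcc2 and Smarcd1 with Smarcd3. In the genome (RefSeq, GRCm38.p6) Smarca4 and Smarcc1 both lie on chromosome 9 and Smarcd1 and Arid2 both on chromosome 15, while the remaining 6 lie on a chromosome each. Smarcd3 spans chr5:24592622-24624456 and Arid2 spans chr15:96287522-96405463.

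**Figure D1:**
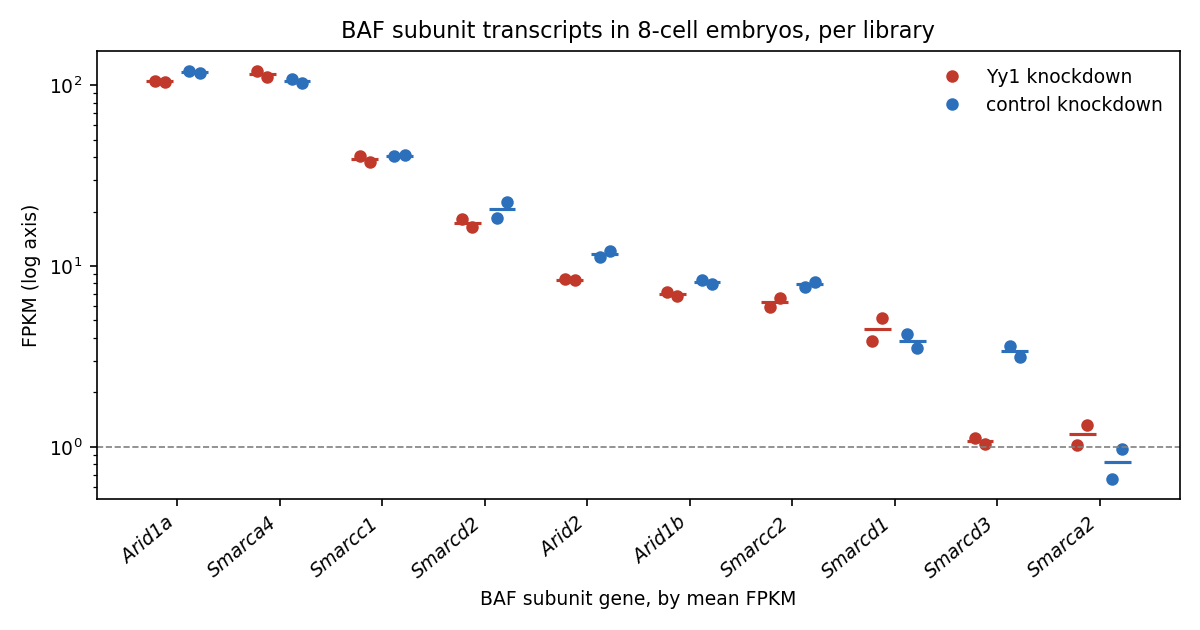
FPKM of the 10 BAF subunit genes in each library on a log axis, with Yy1 knockdown libraries in red and control knockdown libraries in blue. Points are libraries, short lines are group means of 2 libraries, and the dashed line is the filter of 1 FPKM. The red and blue points of Smarcd3 lie farthest apart, at means of 1.08 and 3.39 FPKM.

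Across the family, most subunits were slightly lower in Yy1 knockdown embryos, and Smarcd3 was the 1 member that differed by more than 2-fold between the group means. A gene was tested where its mean over the 4 libraries was at least 1 FPKM, which 12120 genes and 9 of the 10 members passed. Smarca2, with a mean of 0.998 FPKM, was just under it. With limma on log2(FPKM + 1) and Benjamini-Hochberg adjustment, 0 of the 9 members passed an adjusted p of 0.05, and 0% of all tested genes did. At an unadjusted p of 0.05, 2 of the 9 (Smarcd3 and Arid2) passed, both lower, against a background of 8.9% of tested genes in either direction and 4.69% lower. By log2 fold change 7 of the 9 were lower and 2 higher, against 46.8% of all tested genes that were lower. Both Yy1 knockdown libraries lay below both controls in 6 of the 9 and above both in 1. Over all tested genes these shares were 18.9% and 21.8%, or 40.7% without overlap in either direction. The median log2 fold change of the 9 was -0.19, and that of all tested genes 0.02. For a single gene, the median gap between control replicates was 0.23 on this scale over all tested genes. Between Yy1 knockdown replicates it was 0.24. The lower side of the family is a description, since the members were chosen with results of these data known. limma-voom on recovered fragments called 0.107% of genes and a fit of protein-coding genes alone 0.17%, and neither called a member.

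**Figure D2:**
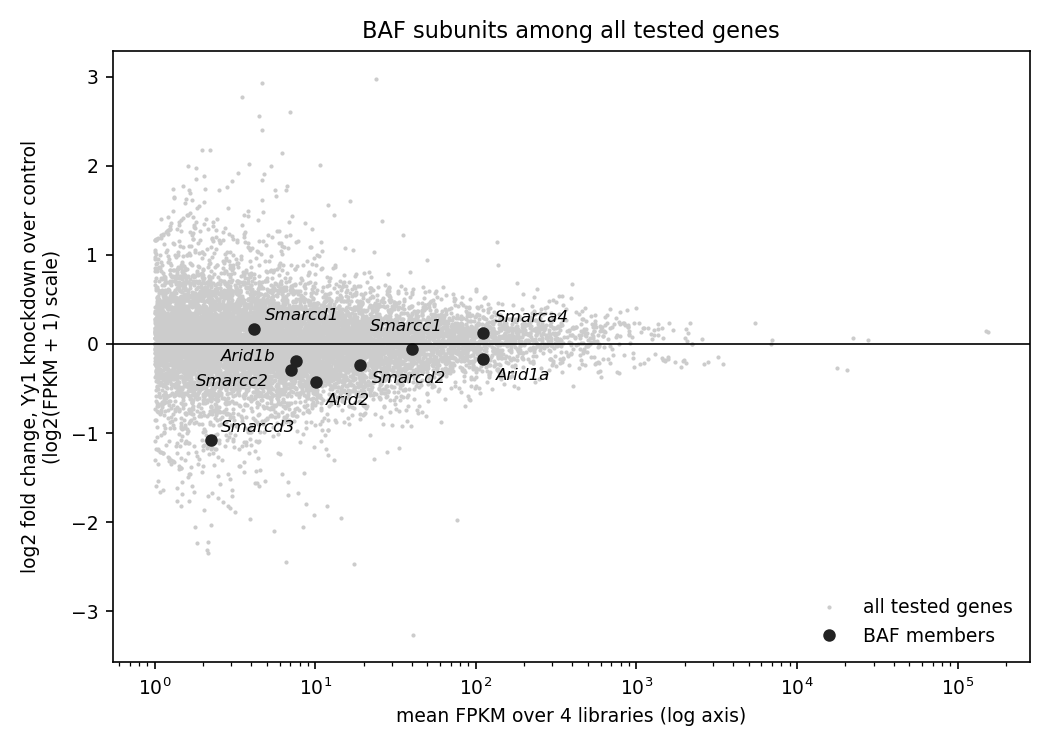
Log2 fold change of Yy1 knockdown over control on the log2(FPKM + 1) scale against mean FPKM over 4 libraries (log axis) for all 12120 tested genes (grey) and the 9 tested BAF members (black). Smarcd3, at -1.08, lies near the lower edge of the cloud, and the other members lie between -0.43 and 0.17.

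Smarca4 encodes BRG1, the ATPase that drives the complex. It had 119 and 111 FPKM in Yy1 knockdown libraries, against 108 and 103 FPKM in controls, from 20991 to 26268 fragments a library. Both knockdown libraries were above both controls, but the gap was small. The log2 fold change was 0.13 (95% interval -0.19 to 0.44, limma adjusted p = 0.789). Smarca2, which encodes the alternative ATPase BRM, had 1.03 and 1.32 FPKM in Yy1 knockdown libraries, against 0.668 and 0.977 FPKM in controls. The groups did not overlap here either, at 328 to 552 fragments a library. Without the filter its log2 fold change was 0.26 (95% interval -0.52 to 1.03, limma adjusted p = 0.821). Smarca4 supplied 99.1% and 98.8% of the summed ATPase FPKM in Yy1 knockdown libraries, against 99.4% and 99.1% in controls. BRM transcripts were thus a small part of the ATPase transcripts in every library.

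The SMARCC proteins are the paired scaffold on which the rest of the complex is built. Smarcc1 (BAF155) had 40.6 and 37.4 FPKM in Yy1 knockdown libraries, against 40.3 and 41.1 FPKM in controls. These groups overlapped, and the log2 fold change was -0.06 (95% interval -0.40 to 0.28). Smarcc2 (BAF170) had 5.96 and 6.65 FPKM in Yy1 knockdown libraries, against 7.68 and 8.13 FPKM in controls. Both knockdown libraries were below both controls, 1.25-fold lower by mean, with a log2 fold change of -0.29 (limma adjusted p = 0.674). Smarcc1 accounted for 87.2% and 84.9% of the summed FPKM of both in Yy1 knockdown libraries, against 84.0% and 83.5% in controls. The shares did not overlap, and the difference of 2.31 percentage points had an exact two-sided permutation p of 0.333, the smallest that 2 against 2 libraries allow. With the first Yy1 knockdown library left out the difference was 1.16 percentage points. With the second left out it was 3.46.

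The SMARCD (BAF60) proteins are interchangeable core subunits through which transcription factors contact the complex. Smarcd3 encodes BAF60c, which is best known for its part in mouse heart and muscle development. It had 1.12 and 1.04 FPKM in Yy1 knockdown libraries, against 3.63 and 3.15 FPKM in controls, from 195 and 156 fragments against 640 and 506. Each control library thus held more than 2 times as many fragments of Smarcd3 as either knockdown library. The group means were 1.08 ± 0.0551 and 3.39 ± 0.342 FPKM (SD, n = 2 each), 3.14-fold lower in Yy1 knockdown. On the log2(FPKM + 1) scale, which understates the change of low genes, the log2 fold change was -1.08 ± 0.23 (SE). Its 95% interval ran from -1.66 to -0.49, with an unadjusted p of 0.00461 and a limma adjusted p of 0.462. Of all tested genes 151 (1.25%) had a fold change at or below this. With limma-voom on recovered fragments the log2 fold change of Smarcd3 was -1.65 (adjusted p = 0.11), and among protein-coding genes alone its adjusted p was 0.132.

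Smarcd2, which encodes BAF60b, was the most abundant of the trio. It had 18.2 and 16.4 FPKM in Yy1 knockdown libraries, against 18.5 and 22.7 FPKM in controls, a log2 fold change of -0.23 (limma adjusted p = 0.715). The groups met closely, since the lower control was near the higher knockdown library. Without control replicate 2 the log2 fold change of Smarcd2 was -0.09, and without control replicate 1 it was -0.37. Smarcd1, which encodes BAF60a, had 3.84 and 5.15 FPKM in Yy1 knockdown libraries, against 4.19 and 3.52 FPKM in controls. Its groups overlapped, and the log2 fold change was 0.17 (95% interval -0.39 to 0.73), or -0.000695 without Yy1 knockdown replicate 2.

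Within the trio the share of Smarcd3 was 4.83% and 4.61% of the summed FPKM in Yy1 knockdown libraries, against 13.8% and 10.7% in controls. Smarcd1 held 16.6% and 22.8% in Yy1 knockdown libraries, against 15.9% and 12.0% in controls, and Smarcd2 held the rest. The Smarcd3 share did not overlap between groups, with a difference of -7.55 percentage points (exact two-sided permutation p = 0.333, the smallest possible here). Smarcd3 stood at 0.291 and 0.202 of the Smarcd1 level in Yy1 knockdown libraries, against 0.866 and 0.893 in controls. The share and this ratio reuse the Smarcd3 values above and are not separate evidence. Since the shares of the trio add up to the whole, a lower Smarcd3 share by itself raises those of its paralogs. The summed level of all 3 was 23.2 and 22.6 FPKM in Yy1 knockdown libraries, against 26.3 and 29.3 FPKM in controls.

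**Figure D3:**
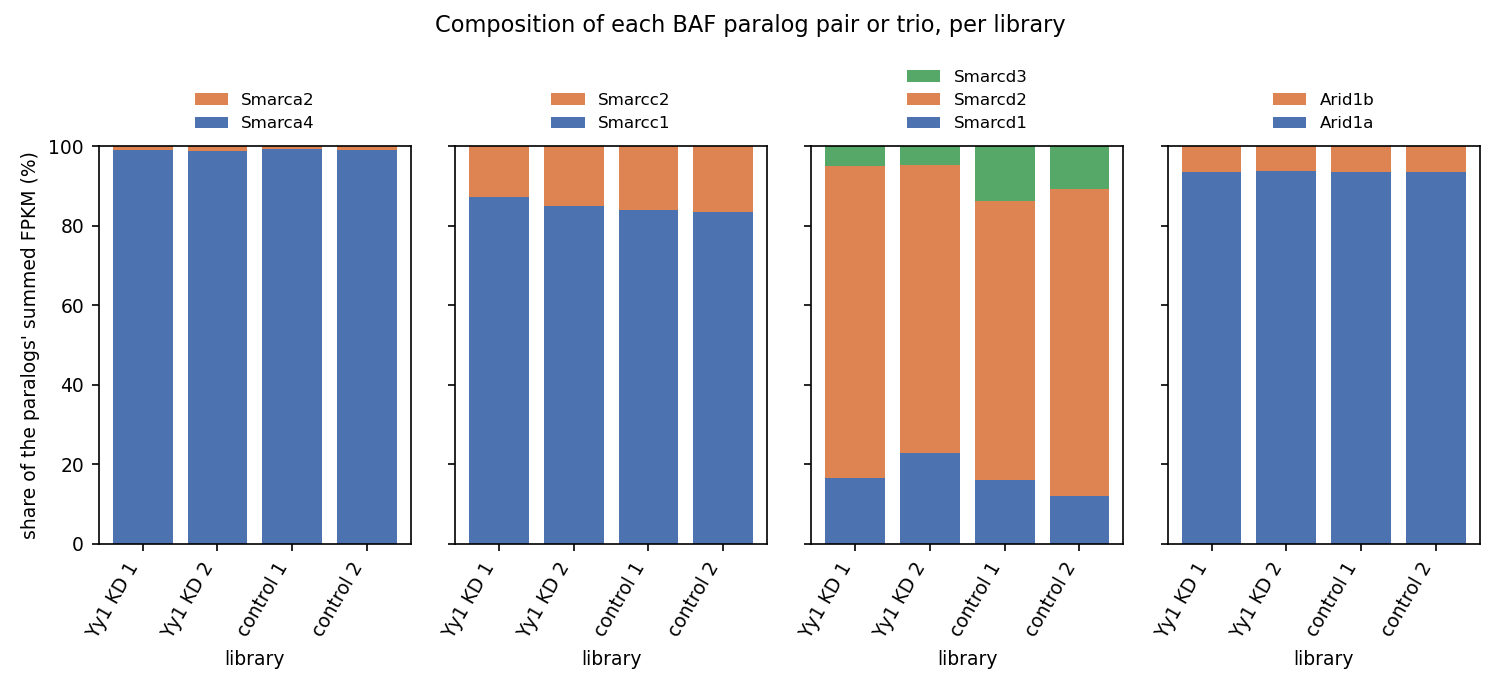
Share of each paralog in the summed FPKM of its pair or trio in each library, with the Yy1 knockdown libraries left of the control libraries. Smarca4 and Arid1a make up 98.8 to 99.4% and 93.5 to 93.8% of their pairs, while the Smarcd3 share averages 4.72% in Yy1 knockdown and 12.3% in control libraries.

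The promoter that RefSeq lists for Smarcd3 is shown because this member differed most. The 250 bases before the start lie on the minus strand at chr5:24602003-24602252 (GRCm38.p6), and capitals mark the CpG dinucleotides, 38 in all. This start lies 22454 bases inside the outer end of the gene, and which start the embryos use is not given by the table.

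Smarcd3 before the start: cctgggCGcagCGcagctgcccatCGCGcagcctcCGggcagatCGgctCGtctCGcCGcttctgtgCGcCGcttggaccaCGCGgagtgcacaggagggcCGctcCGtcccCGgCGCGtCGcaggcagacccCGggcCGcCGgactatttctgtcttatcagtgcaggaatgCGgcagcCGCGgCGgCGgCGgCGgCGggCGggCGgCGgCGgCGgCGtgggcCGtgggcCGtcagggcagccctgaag

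RefSeq windows of 300 bases, 250 before and 50 after a start, were found for 9 of the 10 members (Arid1a has a pair of them), and Arid2 had no entry. These windows were searched on both strands for AANATGGC, the core of the known YY1 motif. It matched in 3 of the 10 windows, 1 each of Arid1a, Arid1b and Smarcd1, and in none of Smarcd3. Of all 32851 windows 6.05% held it, and of the 8617 windows of tested genes 9.68%. The shorter form CCATNTT, which every match of the core contains on one strand or the other, matched in the same number of member windows and in 16.1% of all windows. The matches are given in 30 bases each with the motif in capitals, 5′ to 3′ on the gene's strand, and they describe letters, not binding. They begin at position -232 of Arid1a (opposite strand), position -138 of Arid1b and position 33 of Smarcd1, counted from the start as 1.

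Arid1a chr4:133756983-133757012: gcacatcctctGCCATTTTcagccggttgc
Arid1b chr17:4994925-4994954: gtcacgacctgAACATGGCccatagcgcga
Smarcd1 chr15:99702307-99702336: ggcggctccgggAAGATGGCggcccgggcg

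The members with a match had log2 fold changes of -0.17 (Arid1a), -0.19 (Arid1b) and 0.17 (Smarcd1). The window of Smarcd2 differed from the rest in base composition, with 4 CpG dinucleotides against 22 to 48 in the other member windows. However, its start lies 5366 bases inside the outer end of the gene. The starts of Arid1b and of the Arid1a window without a match lie 777 and 2784 bases inside. Which starts the embryos use is not known here. The median CpG count was 7 over all windows and 21 over those of tested genes.

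ARID subunits set the class of the complex, and ARID1A and ARID1B bind DNA without strong sequence preference. Arid1a, the main subunit of canonical BAF, had 106 and 104 FPKM in Yy1 knockdown libraries, against 119 and 117 FPKM in controls, from 34854 to 47211 fragments a library. Replicates were close and the groups apart, though the difference was 1.13-fold, with a log2 fold change of -0.17 (95% interval -0.48 to 0.13, limma adjusted p = 0.706). Arid1b, its paralog, had 7.22 and 6.83 FPKM in Yy1 knockdown libraries, against 8.34 and 7.91 FPKM in controls, a log2 fold change of -0.19. Both members of the pair were thus lower without overlap, beside 18.9% of all tested genes. Arid1a held 93.6% and 93.8% of their summed FPKM in Yy1 knockdown and 93.5% and 93.7% in control libraries. That the shares were close does not show that both genes respond alike.

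Set against the ATPase, Arid1a stood at 0.890 and 0.930 of the Smarca4 level in Yy1 knockdown libraries, against 1.11 and 1.13 in controls. This ratio did not overlap between the groups (exact two-sided permutation p = 0.333, the smallest possible here). That follows from the values above, since Arid1a was lower and Smarca4 higher without overlap. The ratio is therefore no separate evidence of a change. By FPKM the order of the most abundant pair was therefore opposite in the groups. That order depends on gene length, since Arid1a had more recovered fragments than Smarca4 in every library.

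Arid2, the ARID subunit of PBAF, had 8.51 and 8.32 FPKM in Yy1 knockdown libraries, against 11.2 and 12.2 FPKM in controls. Means were 8.41 ± 0.133 and 11.7 ± 0.660 FPKM (SD, n = 2 each), 1.39-fold lower in Yy1 knockdown. Both knockdown libraries were below both controls. Its log2 fold change of -0.43 had a 95% interval from -0.84 to -0.02, an unadjusted p of 0.0413 and a limma adjusted p of 0.548. Pbrm1, Phf10 and Brd7 encode the other subunits particular to PBAF. Pbrm1 (BAF180), whose bromodomains bind acetylated histones, had 5.55 and 5.25 FPKM in Yy1 knockdown libraries, against 8.06 and 6.84 FPKM in controls (log2 fold change -0.40, limma adjusted p = 0.604). Phf10 (BAF45a) had 3.61 and 3.91 FPKM in Yy1 knockdown libraries, against 4.16 and 4.48 FPKM in controls. Brd7, a bromodomain subunit, had 12.7 and 11.4 FPKM in Yy1 knockdown libraries, against 11.5 and 14.2 FPKM in controls. Of these 4 PBAF genes 3, all but Brd7, were lower without overlap, beside 18.9% of all tested genes.

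Among 21 further BAF genes outside the 10, 15 passed the filter, and limma called 0 of them. Of the 15, 11 were lower and 4 higher by log2 fold change, beside 46.8% of all tested genes that were lower. Both knockdown libraries were below both controls in 5 and above both in 0, beside 18.9% and 21.8% of all tested genes. The median log2 fold change was -0.11. Bcl7a, an accessory subunit of the ATPase module, was the 1 of the 15 with an unadjusted p under 0.05, beside 8.9% of all tested genes. It had 5.94 and 4.09 FPKM in Yy1 knockdown libraries, against 7.76 and 9.40 FPKM in controls (log2 fold change -0.68, limma adjusted p = 0.532). Dpf2 (BAF45d), a reader of histone modifications, had 15.4 and 13.1 FPKM in Yy1 knockdown libraries, against 17.5 and 18.3 FPKM in controls (log2 fold change -0.31). Bcl7a and Dpf2 also did not overlap between the groups.

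Of the other tested genes of the core and ATPase module, 5 had log2 fold changes between -0.02 and 0.07. Smarcb1, which encodes the core subunit BAF47, had a log2 fold change of 0.07 (95% interval -0.48 to 0.62). Smarce1 (BAF57) stood at 0.03 and Ss18, a subunit of canonical and noncanonical BAF, at 0.04. Actl6a, an actin-related protein that BAF shares with the INO80 complex, was at 0.02, or -0.000796 with median-ratio scaling. Bcl7b stood at -0.02. Dpf3, a BAF45 subunit, was at -0.09 with replicates far apart, at 10.5 and 5.59 FPKM in Yy1 knockdown and 9.83 and 6.96 FPKM in control libraries. Actb, the actin of the ATPase module, had 187 and 114 FPKM in Yy1 knockdown libraries, against 181 and 194 FPKM in controls, a log2 fold change of -0.35 (limma adjusted p = 0.697). The value for Actb was -0.0029 with the second Yy1 knockdown library left out. It was -0.706 with the first left out. Actb and Smarce1 have pseudogene copies that may share reads, and the sources used here do not say how the authors counted such reads.

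The noncanonical complex holds Brd9 and either Bicra or Bicral, which the table lists under their older symbols. Brd9, its bromodomain subunit, had 34.4 and 37.3 FPKM in Yy1 knockdown libraries, against 35.4 and 42.3 FPKM in controls (log2 fold change -0.11). Bicral had 6.52 and 6.39 FPKM in Yy1 knockdown libraries, against 7.09 and 7.43 FPKM in controls (-0.15), and was lower without overlap. Bicra had 4.08 and 2.84 FPKM in Yy1 knockdown libraries, against 3.86 and 3.97 FPKM in controls (-0.15). Below the filter were 6 genes. These were Actl6b, Dpf1 and Ss18l1, which belong to the neuronal form of the complex, Bcl7c, and the lymphoid and neuronal factors Bcl11a and Bcl11b. Their group means reached at most 0.867 FPKM, that of Bcl7c in Yy1 knockdown libraries.

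**Figure D4:**
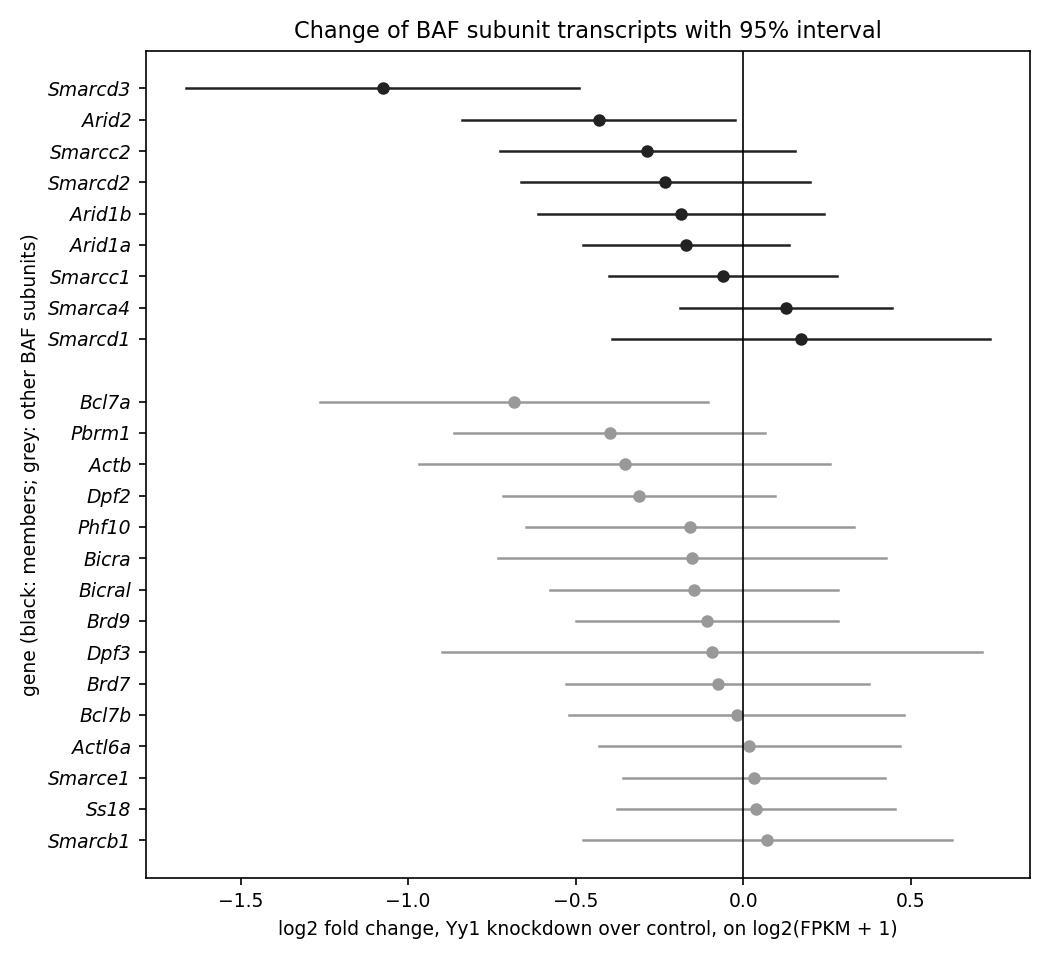
Log2 fold change of Yy1 knockdown over control on the log2(FPKM + 1) scale for the 9 tested members (black) and the 15 other tested BAF subunits (grey), with 95% intervals from limma. The intervals of Smarcd3, Arid2 and Bcl7a lie below 0 before adjustment, and all others include 0. Of all tested genes 8.9% had an unadjusted limma p under 0.05 in either direction.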

How the data were processed

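Per the labels' protocols, total RNA of the embryos was turned into libraries with a SMART-Seq kit that keeps strand. The authors deposited FPKM, 1 column per library. The genome build is mm10 per the submitters' processing notes, which name bedtools, featureCounts, Bowtie2 2.4.3, HISAT2 2.2.1, SAMtools 1.4.1, Trim Galore 0.6.7 and R 4.0.3 without saying which served the RNA libraries. The annotation, the strand setting and the treatment of multiply mapped reads are not given there, so overlapping genes and copies are uncertain.

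Groups and replicate numbers came from sample titles. Genes averaging 1 FPKM or more were tested on log2(FPKM + 1) without further scaling, with limma 3.58.1 in R 4.3.3 (group alone, eBayes with trend, Benjamini-Hochberg over 12120 genes, threshold 0.05). Fragment totals and counts were recovered from steps between FPKM values. Counts were whole to within 0.02 fragments for 12119 of the 12120 genes, though a count can be understated by a common factor. Without molecular identifiers fragments are not independent molecules, and depth bears on counting error alone. The fit and the recovery were also run on simulated data, and the outcomes are not given here.

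Shares of paralogs, and the ratio of Arid1a to Smarca4, were compared with an exact permutation test over libraries. The ratios between genes were not among the planned comparisons. Promoter windows are from RefSeq (GRCm38.p6), as are the symbols Bicra and Bicral for rows listed under older names. All members and all other BAF subunits of the list were named, whatever their values. Embryo markers and the highest gene of each other marker list could be named; the cumulus markers at 0 were named after their values were seen. Members and lists were chosen with earlier results of these data known. Alternatives were another pseudocount, filter, scaling, moderation or threshold, a replicate block, voom, and leaving out each library; protein-coding genes alone, and the looser threshold for members, were chosen after seeing the data.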

Additional observations from a re-analysis of the deposited data

How the results depend on the processing

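In all 15 alternatives run, a looser threshold among them, 0 members were called, and over the refits the median log2 fold change of the tested members ran from -0.22 to -0.16. The count of genes called, 0 in the main setting, was 4 with a filter of 5 FPKM, 1 with robust eBayes, 3 at an adjusted p of 0.1, 13 with limma-voom and 14 with protein-coding genes alone. In the other settings it was 0, including the replicate block, under which the members' median was -0.19. Same-numbered libraries hardly deviated together (r = 0.0994 over 12120 genes), so the numbers were not taken as pairs. Smarcd3 was lower in each fit that held it, between -1.65 and -0.997 on the log2 scale (adjusted p from 0.11 to 0.84); a filter of 5 FPKM leaves out Smarcd3 and Smarcd1. Of the members, leaving out a library reversed the direction of Smarcd1 alone (-0.000695 to 0.344). Of the other subunits it reversed Smarce1 (-0.0593 to 0.125), Actl6a (-0.14 to 0.177), Dpf3 (-0.495 to 0.308), Bcl7b (-0.188 to 0.149), Brd7 (-0.22 to 0.066), Brd9 (-0.233 to 0.0175), Ss18 (-0.108 to 0.182), Smarcb1 (-0.143 to 0.285) and Bicra (-0.356 to 0.0485). Median-ratio scaling put Actl6a at -0.000796. With all libraries the Smarca4 and Arid1a shares overlapped between the groups, at differences of -0.24 and 0.16 percentage points. A kept direction therefore says little for them. The difference in the Smarcd2 share, 1.82 percentage points with all libraries, ran from -1.68 to 5.32 without one. The shares of the other paralogs kept their direction. The cause was not tested. In fits that drop a library, the remaining lone library is assumed to vary like the other group.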
